A study of Drosophila melanogaster with 12 samples.

Results

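The genes described here are those of the proximal part of chromosome arm 2L of Drosophila melanogaster that the deposited tables list under a CG number. They were chosen by name, by a gene midpoint at position 14200000 or above on 2L of the dm3 assembly, and by at least 10 counts in at least 3 of the 12 libraries. The rule used no comparison between groups. It found 391 genes of the 12982 with values in all libraries, and every CG gene listed in the interval met the count rule. They run from position 14274795 to 22747273, with 199 on the plus strand and 192 on the minus strand.

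A CG number is the name that the genome annotation gives to a predicted gene, and it stays in use until a gene is named after a function or a mutant phenotype. Genes that still carry one are therefore mostly little studied, although several of these are enzymes, proteasome subunits or receptors with a later name. The interval approaches the centromeric heterochromatin of 2L and includes the Adh and Ddc regions, which were studied in depth by classical genetics. AkhR lies on the same arm but outside the interval. Its product is the receptor through which adipokinetic hormone, the insect counterpart of glucagon, releases fat and sugar from stores.

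RNA was measured in whole adult flies, aged 10 to 11 days and of Canton S genetic background, by sequencing of polyA-selected libraries. The wildtype group is labelled wild-type with no parental obesity. The groups called het, paternal and maternal are all labelled AKHR +/-, with no obese parent, an obese paternal parent and an obese maternal parent. Each group held 3 libraries, 1 from each of 3 experimental replicates. The sources used here do not state the number of flies per library, their sex, the allele of AKHR or the cross. They also do not say whether the mutant chromosome shared the Canton S sequence along 2L.

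The libraries held 17212029 to 21370713 listed reads, of which the 391 genes took 2.20 to 2.35%. AkhR stood at 77.3 to 84.8 CPM, the counts of a gene scaled to library size, in the wildtype libraries and at 71.6 to 84.3 CPM in the 9 libraries labelled heterozygous. Its log2 change was -0.06 (SE 0.0527, adjusted p = 0.664 with edgeR), so its level does not check the genotype labels, and each direction below is one between groups as labelled. Levels are CPM scaled by TMM, or FPKM where genes are compared with each other. A gene is called where edgeR's quasi-likelihood test gave an adjusted p under 0.05 over the 12809 genes tested.

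Most of the 391 are protein-coding genes of modest length. The current annotation types 376 as protein coding, 7 as noncoding RNA and 1 as a pseudogene, and 7 had no match. Of the 384 with a match, 77 now carry another name. The median counted length was 1368 bases, against 1751 over all genes. The median FPKM was 16.0, with a range from 0.283 to 1301, against a median of 12.9 over all genes. A total of 154 genes (39.4%) overlap another listed gene. These overlaps are of whole gene intervals, introns included. Since the strand setting of the authors' counting is not given, reads from a stretch that overlapping genes share cannot be told apart. In 14 of the genes the counts were the same as those of another gene, as in CG10570 and CG42502, which are listed over a single interval.

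The highest transcript levels per length were those of CG34166 (14743253 to 14743859, plus strand), at a mean of 1301 FPKM and 1151 to 1538 FPKM across libraries. CG10570 and CG42502 (18810036 to 18810986, minus strand) shared a value of 983 FPKM, and CG31740 (18008788 to 18009694, plus strand) stood at 965 FPKM. The log2 differences of these 4 genes between the heterozygous groups and wildtype lay between -0.07 and 0.07 and were not called. At the other end, CG14397 had 87 counts over all 12 libraries and CG34007 had 93. CG34007 was the only one of the 391 that did not enter the test, which left 390.

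The main question was whether these genes differ between flies labelled heterozygous and wildtype flies, and where along the arm. When the 3 heterozygous groups were set together against wildtype, 5 of the 390 genes were called, which is 1.28% against 1.49% of all genes tested. CG14401 and CG11629 were higher in the heterozygous groups, and CG15282, CG17323 and CG17472 were lower. The higher calls were 0.513% of the tested genes of the interval, against 0.515% of all genes. The lower calls were 0.769%, against 0.976%. The share called in the interval was thus near that of the whole genome. In whole-fly RNA, fewer cells of a type and less RNA per cell cannot be told apart.

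**Figure D1:**
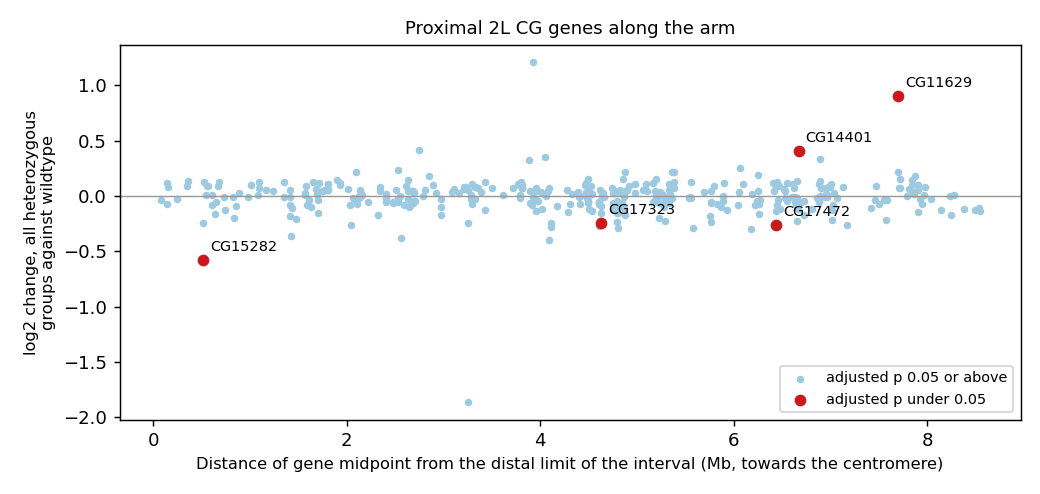
Log2 change of 390 proximal 2L CG genes in the 3 heterozygous groups against wildtype, plotted by the distance of each gene's midpoint from the distal limit of the interval in Mb. Each point is a gene, red points are the 5 called genes, and they are spread along the interval with no run of neighbouring calls.

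CG11629 (21896666 to 21898289, minus strand) had the largest change among the called genes. No role for it is assigned in the sources used here. It stood at 3.13, 3.82 and 4.19 CPM in the wildtype libraries 1 to 3. It stood at 4.90, 7.39 and 7.84 CPM in the het libraries, at 7.84, 7.94 and 7.55 CPM in the paternal libraries and at 5.29, 7.56 and 6.39 CPM in the maternal libraries. All 9 libraries labelled heterozygous were above all 3 wildtype libraries, and het 1 and maternal 1 were the lowest of the 9. The log2 change over the 3 groups was 0.90 (SE 0.144, adjusted p = 0.00225 with edgeR). Leaving out single libraries gave 0.80 to 1.00, with adjusted p up to 0.0401.

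CG14401 (20869854 to 20871565, plus strand) stood at 18.8, 19.7 and 21.7 CPM in the wildtype libraries. It stood at 24.9, 28.6 and 26.7 CPM in the het libraries, at 27.0, 27.4 and 26.0 CPM in the paternal libraries and at 23.7, 27.7 and 28.0 CPM in the maternal libraries. The groups did not overlap with wildtype, and the het, paternal and maternal means of 26.7, 26.8 and 26.5 CPM lay within 1 SD of each other. The log2 change was 0.41 (SE 0.0647, adjusted p = 0.00159 with edgeR). The gene ends within the intervals of sky, a GTPase-activating protein of synaptic vesicle traffic, and of CG43739, both on the minus strand. These showed log2 differences of -0.06 and -0.06 and were not called.

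CG15282 (14712665 to 14713266, plus strand) was a weakly expressed gene with 29 to 54 counts per library. Its wildtype values were 2.72, 2.85 and 2.76 CPM. The het values were 1.88, 1.85 and 1.59 CPM, the paternal values 1.84, 1.93 and 1.44 CPM and the maternal values 2.28, 2.04 and 1.94 CPM. All 9 were below all 3 wildtype libraries. The log2 change was -0.58 (SE 0.129, adjusted p = 0.0265 with edgeR). The call was lost without wildtype 1, 2 or 3 (adjusted p = 0.0916, 0.160 and 0.0965 with edgeR), without paternal 3 (0.0529) and with DESeq2 (0.101).

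CG17472 (20634557 to 20635167, plus strand) was the most abundant of the called genes per length, at 194 FPKM. Its wildtype values were 114, 131 and 115 CPM. The het values were 100.1, 99.8 and 97.2 CPM, the paternal values 99.8, 100.9 and 95.2 CPM and the maternal values 109.1, 109.0 and 85.9 CPM. The groups did not overlap, and maternal 3 was the lowest library. The log2 change was -0.27 (SE 0.0609, adjusted p = 0.0372 with edgeR). The call was lost without wildtype 1, 2 or 3 (adjusted p = 0.0852, 0.312 and 0.0747 with edgeR), without any het library (0.0622 to 0.0723), without any paternal library (0.0565 to 0.0763) and without scaling factors (0.0530).

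CG17323 (18823574 to 18826553, plus strand) is now named Ugt36D1 and encodes a UDP-glycosyltransferase, an enzyme family that attaches sugars to small lipophilic molecules. Its wildtype values were 90.2, 88.3 and 77.7 CPM. The het values were 72.2, 72.2 and 74.0 CPM, the paternal values 65.7, 78.5 and 72.6 CPM and the maternal values 71.8, 69.6 and 72.1 CPM. Paternal 2 was above wildtype 3, so the groups overlapped. The log2 change was -0.25 (SE 0.0514, adjusted p = 0.0176 with edgeR). The call was lost without wildtype 1 or wildtype 2 (adjusted p = 0.155 and 0.178 with edgeR).

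**Figure D2:**
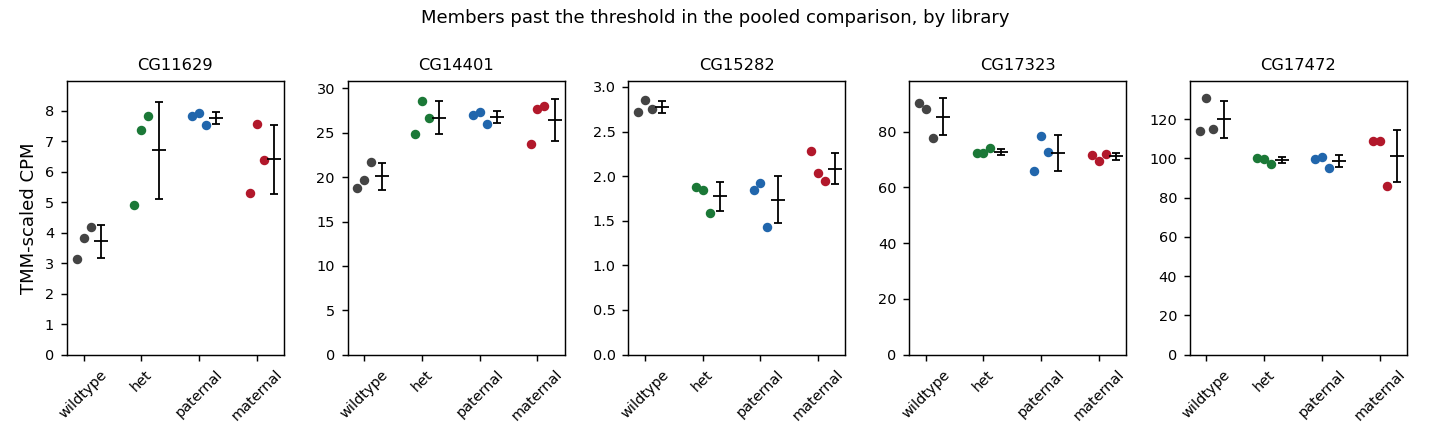
TMM-scaled CPM of the 5 called genes in each of 12 libraries, by group, with linear axes from 0. Points are libraries, and the bar beside each group is the mean with 1 SD (n = 3). CG11629 and CG14401 lie higher in the 3 heterozygous groups than in wildtype, CG15282 and CG17472 lie lower without overlap, and CG17323 lies lower with overlap.

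The nearest 2 tested genes by midpoint on each side of the 5 called genes include no gene called without the block. The neighbours of CG11629 include tsh, a zinc finger regulator of segment identity, with a log2 difference of 0.01, and CG1421, with 0.21 (adjusted p = 0.253 with edgeR), which had all 9 libraries labelled heterozygous above the wildtype ones. CG17323 lies between the related genes CG17324 and CG17322. With the replicate number in the fit as a block, CG17597, 2.46 kb from CG17323, was called at a log2 change of -0.16 (adjusted p = 0.0343 with edgeR). So was Adhr, which lies 93.8 kb from CG15282 and within the interval of osp, at -0.11 (0.0333). CG15282 lies 23.3 kb from osp and 0.511 kb from CG34165, which showed log2 differences of -0.02 and -0.24 and were not called.

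Next by p-value came CG10492, CG17329 and CG31785, which were not called. CG10492 stood at 57.3 ± 1.28 CPM (SD, n = 3) in wildtype and at 61.7 to 68.3 CPM in the 9 other libraries, a log2 difference of 0.16 (SE 0.0419, adjusted p = 0.0711 with edgeR). CG17329 stood at 15.8 ± 1.07 CPM in wildtype and at 17.1 to 19.9 CPM in the others, a log2 difference of 0.22 (adjusted p = 0.0949 with edgeR). CG31785, now Grl36b, a member of the gustatory receptor-like family, had 2 to 21 counts per library and a log2 difference of 1.21 (SE 0.357, adjusted p = 0.102 with edgeR).

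The separate comparisons share the 3 wildtype libraries, so their values are set side by side. In het against wildtype 2 of 390 genes were called (0.513%, against 0.593% of all genes). In paternal against wildtype 2 were called (0.513%, against 0.523%). In maternal against wildtype 1 was called (0.256%, against 0.344%). All of these calls were of CG14401 or CG11629, and all were higher. Over all genes, higher calls made up 0.203% in het, 0.156% in paternal and 0.156% in maternal, and lower calls 0.39, 0.367 and 0.187%. An unadjusted p under 0.05 was reached by 42 genes of the interval in het (10.8%, against 10.7% of all genes), 29 in paternal (7.44%, against 10.5%), 43 in maternal (11.0%, against 12.1%) and 59 over the 3 groups (15.1%, against 14.6%).

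CG14401 was called in each comparison, with log2 changes of 0.41 in het (SE 0.0778), 0.41 in paternal (SE 0.0777) and 0.40 in maternal (SE 0.0781), at adjusted p = 0.0115, 0.0132 and 0.0224 with edgeR. It lost the het call without wildtype 1, wildtype 2 or het 2 (adjusted p = 0.0952, 0.0762 and 0.0972 with edgeR). It lost the paternal call without wildtype 1, wildtype 2, paternal 1 or paternal 2 (0.0972, 0.0795, 0.0752 and 0.0730). It lost the maternal call without wildtype 1, wildtype 2 or maternal 2 (0.150, 0.137 and 0.101).

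CG11629 was called in het, with a log2 change of 0.85 (SE 0.172, adjusted p = 0.0230 with edgeR), and in paternal, with 1.06 (SE 0.168, adjusted p = 0.00325). Its maternal log2 difference of 0.80 (SE 0.174) had an adjusted p of 0.0587 with edgeR and of 0.00538 with the replicate number as a block. The het call was lost without wildtype 1, wildtype 2, het 2 or het 3 (adjusted p = 0.124, 0.113, 0.130 and 0.114 with edgeR). The paternal call was kept without any single library, with adjusted p up to 0.0322.

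The authors' deposited table for het against wildtype puts 3 of 391 genes past an adjusted p of 0.05 (0.767%, against 1.10% of its genes), namely CG14401 at a log2 ratio of 0.28, CG11629 at 0.27 and CG17472 at -0.22. The authors' deposited table for paternal against wildtype lists the same genes past it (0.767%, against 1.06%), at 0.29, 0.41 and -0.23. The authors' deposited table for maternal against wildtype has CG11629 alone (0.256%, against 0.371%), at 0.28. The edgeR log2 changes of CG11629 from the same counts were larger, at 0.85 in het, 1.06 in paternal and 0.80 in maternal. The deposited ratios are thus another measure, and their sizes are not compared with those from edgeR. The authors' deposited tables for paternal and maternal against het put 0 of the 391 genes past it, against 0.00772 and 0.0155% of their genes. The authors' deposited tables list an exon log2 ratio in 8 of the 391 genes, with 10 entries. Of these entries 9 have a score of 0, and 0 pass the threshold. The share of all genes with such an entry was not counted.

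When the replicate number entered the fit as a block, more genes were called in each of the 4 comparisons with wildtype. In the interval the count over the 3 heterozygous groups was 18, or 4.62%, against 5.43% of all genes. Of these, 10 were higher (2.56%, against 2.53%) and 8 were lower (2.05%, against 2.9%). In het it was 5 (1.28%, against 2.22%), in paternal 4 (1.03%, against 1.61%) and in maternal 4 (1.03%, against 1.77%). CG14401, CG11629 and CG17472 were called with the block in all 3. CG17472 had log2 changes of -0.27, -0.28 and -0.24 there (adjusted p = 0.0149, 0.0164 and 0.0382 with edgeR and the block). CG15282 was called in het, at -0.65 (0.0417), and in paternal, at -0.69 (0.0349), CG10492 in het, at 0.18 (0.0442), and CG17323 in maternal, at -0.26 (0.0333). The block thus raised the count in the interval and in the genome alike, and the share in the interval was the smaller in all 4 comparisons.

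The 13 genes called over the 3 groups only with the block had log2 changes from -0.36 to 0.22. CG10492 (adjusted p = 0.0231 with edgeR and the block) and CG17329 (0.0458) were among the higher ones. CG15286, at 94.2, 94.8 and 94.5 CPM in wildtype and 97.6 to 106 CPM in the 9 other libraries, had a log2 change of 0.12 (0.0371). CG14402, which lies distal to CG14401, stood at 46.9, 47.8 and 46.4 CPM in wildtype and at 48.5 to 53.5 CPM in the others, with 0.14 (0.0469). Both groups of libraries were separate in these genes.

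CG17349 and CG31798 were also higher, as were CG13245 and CG43816, a pair with the same counts that is a single measurement. CG31832, CG34051, CG17597, CG7631 and CG8665 were lower with the block. CG8665, annotated as a 10-formyltetrahydrofolate dehydrogenase of folate metabolism, had a wide spread in wildtype. Its values there were 80.8, 78.1 and 52.5 CPM, against 49.8 to 67.6 CPM in the 9 others, so the groups overlapped. Its log2 difference was -0.27 (adjusted p = 0.420 with edgeR) without the block, and its log2 change was -0.25 (0.0469) with it.

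Without a test, 11 genes of the interval (2.82%, against 3.10% of all genes) had all 9 libraries labelled heterozygous above all 3 wildtype libraries. Another 6 (1.54%, against 2.72%) had all 9 below. Beside genes already named, the higher ones included CG6412, now mEFTs, a mitochondrial translation elongation factor, at 166 to 182 CPM in wildtype and 182 to 205 CPM in the others. Its log2 difference was 0.11 (adjusted p = 0.228 with edgeR). The lower ones included CG13284, at 165 ± 1.98 CPM (SD, n = 3) in wildtype and 149 to 160 CPM in the others, with a log2 difference of -0.10 (adjusted p = 0.171 with edgeR).

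Along the interval there were 5 calls, too few to show a pattern by position. Over all genes tested, 1.49% were called. Counted in steps of 1 Mb, with a first step from the limit to 15 Mb, 1 of 21 genes was called in that first step, 1 of 72 between 18 and 19 Mb, 2 of 51 between 20 and 21 Mb and 1 of 39 between 21 and 22 Mb. The steps from 15 to 18 Mb, from 19 to 20 Mb and from 22 to 23 Mb had 0 calls. The median log2 difference of a step lay between -0.03 and 0.04. The median absolute log2 difference ranged from 0.0551 between 19 and 20 Mb to 0.0956 between 22 and 23 Mb. It followed no order along the arm.

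Close to the distal limit, CG32971 (14274795), CG33090 (14334160) and CG15286 (14338240) were the nearest genes inside. Their log2 differences were -0.04, -0.07 and 0.12, and none was called. Just outside lay CG31769 with -0.10 and CG17341 with -0.17, both not called, and CG43333, which was too low to be tested. At the proximal end CG40439, CG43266 and CG17715 showed log2 differences of -0.13, -0.11 and -0.14, again without a call.

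The shares of called CG genes along 2L, from the distal end, were 13.3% of 279 genes below 4.2 Mb, 4.75% of 337 from 4.2 to 9.2 Mb, 4.46% of 314 from 9.2 Mb to the limit and 1.28% of 390 beyond it. The median absolute log2 difference was 0.0971, 0.0820, 0.0744 and 0.0693 in the same order, against 0.0660 over all genes. Genes with an absolute log2 difference over 0.5 made up 6.09, 2.67, 1.27 and 1.03% of these groups, against 1.12% of all genes. The difference between these shares was not tested.

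On the other chromosomes, 0.183% of 1090 CG genes of X were called, 0.975% of 1334 on 2R, 0.919% of 1306 on 3L and 0.824% of 1700 on 3R. Beyond the limit on 2L, the genes with other names had 1.73% of 289 called. The 49 tested noncoding CR genes there had 0 calls with edgeR, with or without the block. With the block, the order along 2L was 19.7, 11.0, 10.8 and 4.62% from distal to proximal, against 5.32% on 2R. The median log2 difference of the 390 genes was 0.01 for het, 0.00 for paternal and 0.00 for maternal against wildtype.

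**Figure D3:**
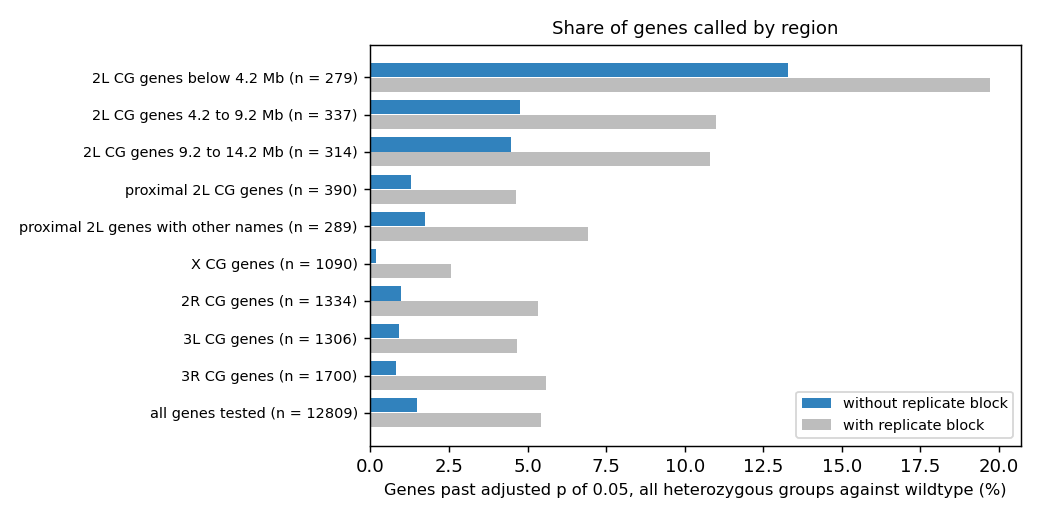
Percent of tested genes with an adjusted p under 0.05 in the 3 heterozygous groups against wildtype, by region, from the fit without (blue) and with (grey) the replicate block. Each bar is a share of the number of genes given as n. The proximal 2L CG genes, at 1.28 and 4.62%, stand lowest of the 4 stretches of 2L CG genes and near all genes at 1.49 and 5.43%.

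The spread of the fit leaves little room for large differences in most of these genes. In 358 of 390 (91.8%, against 90.9% of all genes) the 95% interval of the log2 difference over the 3 groups, taken as 1.96 SE to each side, lay within 0.5 of 0. In the single comparisons it did so in 347 genes for het, 341 for paternal and 340 for maternal. The median SE was 0.0627 over the 3 groups and 0.0765 for het alone.

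Genes of the interval that have since been named were described by role, in groups chosen with earlier results of these data known. Over the 3 groups of flies, 1.49% of all genes tested were called. A count of 0 in so small a role group therefore says little about a role. The 4 UDP-glycosyltransferases include 1 that fell, CG17323. Its neighbours CG17324 (Ugt36F1) and CG17322 (Ugt36E1) had 12.6 ± 0.407 and 28.6 ± 3.08 CPM (SD, n = 3) in wildtype. Their log2 differences were 0.06 and -0.09, and that of the more distant CG10178 (Ugt301D1) was -0.08, at adjusted p = 0.731, 0.574 and 0.504 with edgeR. Whether these differ from the change of CG17323 was not tested. Per length, CG17323 was the highest of them at 36.1 FPKM, followed by CG10178 at 27.7, CG17322 at 14.3 and CG17324 at 7.75 FPKM.

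In RNA processing and mitochondrial translation, 0 of 8 genes were called in any comparison with wildtype. They include CG9987, the RNA ligase RtcB, at 26.8 ± 0.358 CPM in wildtype with a log2 difference of -0.00, and the mitochondrial aspartyl-tRNA synthetase CG31739, with 0.04. Of 7 enzymes of small-molecule and glycan metabolism, 0 were called. The L-2-hydroxyglutarate dehydrogenase CG10639 had 79.1 ± 0.894 CPM in wildtype and a log2 difference of 0.03 (SE 0.0370). The homocysteine methyltransferase CG10623 had -0.07, and the coenzyme Q methyltransferase CG9249 had 0.07.

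Both proteasome subunits, CG17331 (Prosbeta4) and CG31742 (Prosbeta5R2), were level with wildtype within their error, with log2 differences of -0.03 (SE 0.0410) and 0.01 (SE 0.0567). Of 4 genes of the cilium, centriole and sperm tail, 0 were called, among them CG31803 (Rsph9), a radial spoke protein, with 0.06. Of 4 receptor and channel genes, 0 were called. CG10176, which encodes the tumour necrosis factor receptor Grindelwald, stood at 21.0 ± 1.28 CPM in wildtype, with a log2 difference of -0.14 (adjusted p = 0.219 with edgeR).

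The 2 genes listed here as Ly6-type surface proteins lie distal to CG14401. CG9338 and CG31675 lie nearer to it, with log2 differences of -0.08 and -0.12, and were not called. The list may leave out other genes of this type, and the called CG14401 is not on it. CG9335 (twit) stood at 10.6, 10.1 and 10.1 CPM in wildtype and at 7.46 to 10.2 CPM in the 9 others, with a log2 difference of -0.23 (adjusted p = 0.162 with edgeR). CG9336 (bero) stood at 341 ± 16.5 CPM with -0.02. CG1832 encodes Clamp, a zinc finger protein that helps to target the male dosage compensation complex. It stood at 63.0 ± 0.685 CPM in wildtype, with a log2 difference of 0.01 (SE 0.0395). Of 8 genes now typed as RNAs without a protein product or as a pseudogene, 0 were called, and their log2 differences ran from -0.28 to 0.42.

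Named genes of the Adh and Ddc regions gave 0 calls with edgeR in all 4 comparisons with wildtype. Over all genes, 1.49% were called over the 3 groups. Of 31 listed for the Adh region 28 were tested, 26 of them inside the interval and rk and Sos outside it. Over all 28 the median log2 difference in the 3 groups was -0.02, with a range from -0.14 to 0.15. With the block 3 of the 28 were called over the 3 groups, where 5.43% of all genes were. They were BicC, an RNA-binding regulator of oogenesis, and Adh and Adhr. BicC had a log2 change of 0.15 (adjusted p = 0.0104 with edgeR and the block). Adh and Adhr had -0.11 (0.0332 and 0.0333), and their counts cover the same interval, so their calls are not separate. Of 20 listed for the Ddc region 18 were tested, with a median of -0.04, a range from -0.23 to 0.14 and 0 calls with the block. Ddc, the dopa decarboxylase, stood at 78.1 ± 1.07 CPM (SD, n = 3) in wildtype, with a log2 difference of -0.02.

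Between the heterozygous groups, 0 of the 390 genes were called with edgeR, with the block, with DESeq2 or with limma. Over all genes, edgeR called 0.00781% in paternal against het, 0.0156% in maternal against het and 0.0156% in maternal against paternal, the last being 0.0234% with the block. An unadjusted p under 0.05 was reached by 5 genes of the interval in paternal against het (1.28%, against 2.11% of all genes), by 12 in maternal against het (3.08%, against 4.15%) and by 6 in maternal against paternal (1.54%, against 2.75%). The 95% interval lay within 0.5 of 0 in 348, 346 and 349 of the 390 genes. For CG11629 the log2 difference was 0.21 in paternal against het (SE 0.152) and -0.06 in maternal against het (SE 0.157). For CG14401 these were 0.00 (SE 0.0759) and -0.01 (SE 0.0762).

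Within groups, CG6639 varied more than any other of the 390 genes. It is now named SPH93, a serine protease homologue known from immune studies, and lies from 17454263 to 17455923 on the minus strand. Its wildtype values were 0.719, 0.645 and 31.0 CPM. The het values were 22.5, 0.699 and 0.768 CPM, the paternal values 20.2, 0.584 and 0.463 CPM and the maternal values 0.512, 0.498 and 0.400 CPM. Wildtype 3, het 1 and paternal 1 were high, with 607, 419 and 384 counts, and the other 9 libraries had 7 to 14 counts. The gene was not called in any comparison.

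CG18563, the next gene on that strand, had the same high libraries. It starts 746 bases beyond CG6639, at 17456670, and ends at 17458044. Its wildtype values were 0.462, 0.753 and 2.50 CPM. The het values were 3.28, 0.749 and 0.658 CPM, the paternal values 2.11, 0.584 and 0.833 CPM and the maternal values 0.626, 0.498 and 0.799 CPM. The high libraries had 49, 61 and 40 counts, and the others 9 to 18.

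Both genes lie within the interval of CG5050, which is on the plus strand (17452924 to 17458775) and stood at 139 ± 3.02, 145 ± 4.97, 145 ± 7.19 and 142 ± 9.96 CPM (SD, n = 3) in wildtype, het, paternal and maternal flies. CG5050 did not follow the pattern. The step between the third and the fourth highest library was measured for every gene on the scale of log2(CPM + 0.1), a measure chosen after these values were seen. It was 4.55 in CG6639, 1.49 in lectin-28C, where the 3 maternal libraries are the high ones, and 1.24 in CG18563. No other of the 12809 genes had a step over 1. Of the 34 genes with the same 3 highest libraries as CG6639, only CG6639 and CG18563 had a step over 0.5.

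Antimicrobial peptide genes were summed beside them, since CG6639 is known from immune studies. The list was drawn up after the values of CG6639 were seen, and 13 of its 14 genes were tested. Their summed level was 292, 166 and 659 CPM in the wildtype libraries and 347, 208 and 527 CPM in the het libraries. It was 311, 204 and 144 CPM in the paternal libraries and 297, 153 and 353 CPM in the maternal libraries. The sum was highest in wildtype 3, as was CG6639. Het 3 and maternal 3, however, had higher sums than het 1 and paternal 1 while CG6639 was low there. The part of immune state in the pattern was not tested.

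**Figure D4:**
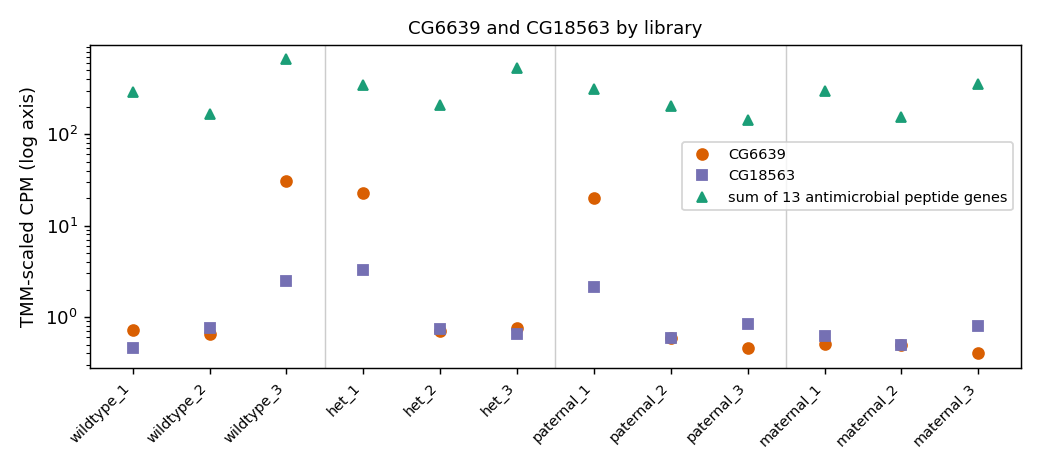
TMM-scaled CPM (log axis) of CG6639, of CG18563 and of the sum of 13 antimicrobial peptide genes in each of 12 libraries. CG6639 and CG18563 are high in wildtype 3, het 1 and paternal 1, with CG6639 at 31.0, 22.5 and 20.2 CPM, and the sum of the peptide genes does not follow them in het 3 or maternal 3.

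Variation within groups was otherwise near that of the genome. The 3 libraries of a group spanned more than 1 on the log2(CPM + 0.1) scale in 1.54% of the 390 genes for wildtype, 1.54% for het, 1.03% for paternal and 0.769% for maternal. Over all genes this was 1.16, 1.25, 1.15 and 1.30%. The median SD of a gene on that scale was 0.108 in the maternal libraries and 0.0755 to 0.0814 in the other groups, and 0.108 and 0.0725 to 0.0778 over all genes. After CG6639 and CG18563, the most variable genes of the interval were CG31785 and CG14397, which are among the weakly expressed ones.

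Some markers of organs and of sex were also lower in the libraries labelled heterozygous. Over all genes, 0.976% were called lower over the 3 groups without the block. Of 10 accessory gland genes 2 fell over the 3 groups (Acp36DE and Acp62F), and their sum was 4471 to 4847 CPM in wildtype against 3907 to 4128 in het, 3918 to 4000 in paternal and 3794 to 4267 in maternal libraries. Of 6 eye genes 3 fell (ninaE, Rh3 and Arr1), and the sum of the 6 was 9442 to 9883 CPM against 8531 to 8650, 8642 to 8807 and 8429 to 8628. Of 6 gut genes Ser8 fell, and the sum of the 6 was 3779 to 4098 CPM against 2975 to 3374, 3159 to 3385 and 3203 to 3640. Of the roX RNAs roX1 fell, and their sum was 389 to 400 CPM against 350 to 359, 350 to 356 and 313 to 365.

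Of 10 testis genes 0 were called without the block, and with it Mst84Db, Mst98Ca and dj were called higher over the 3 groups. The 10 had a median log2 difference of 0.11 and a range from 0.02 to 0.17. With the block 4 accessory gland, 4 eye, 3 gut and 2 roX genes were called over the 3 groups. Over all genes the block gave 5.43% called, with 2.53% higher and 2.9% lower. The summed testis level was 2592 to 2715 CPM in wildtype against 2733 to 2965 in het, 2758 to 2937 in paternal and 2708 to 3239 in maternal libraries. Of 5 tested female genes of 9 listed 0 were called, and the sum of the 5 was 16.9 to 23.0 CPM against 20.6 to 21.7, 20.1 to 22.0 and 19.7 to 21.1. The names of the other 4 female genes were not found among the genes tested, and no marker list summed to 0 in any library. The female sums were low beside the male ones, and the male markers were present in all 12 libraries. The part of these organs in the falls of CG15282, CG17323 and CG17472 or in the rises of CG11629 and CG14401 was not tested.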

How the data were processed

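Whole-fly polyA RNA was sequenced in 12 libraries of 4 groups. Per the file headers, the authors deposited 5 tables with read counts per gene, FPKM values, log2 ratios and adjusted p-values, with coordinates on D_melanogaster_Apr_2006. Novoalign, DESeq and dm3 appear, without versions, in the submitters' processing notes. The sources used here give neither the annotation nor the strand setting. The deposited score stands for an adjusted p and was read as minus 10 times log10, because its median ratio to a DESeq2 value on that scale was 1.00 in paternal and 0.979 in maternal against wildtype. In het against wildtype it was 0.673 with independent filtering and 1.00 without. The sources used here leave the filtering setting of that table unknown. The deposited FPKM values served to compare genes per length. Of 13040 listed genes, 58 lacked values in some libraries and were left out. Values repeated across tables had 0 disagreements.

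The counts were tested in edgeR 4.0.16 (R 4.3.3) after filterByExpr (minimum count 10, minimum total 15) with TMM scaling and a robust quasi-likelihood fit of 4 group means over 12 libraries. Benjamini-Hochberg adjustment ran over 12809 genes. The biological coefficient of variation was 0.0591. The 7 contrasts were het, paternal, maternal and their mean against wildtype, and the 3 pairs among them. The fit was tested on simulated data. DESeq2 1.42.0 and limma 3.58.1 were alternatives, with other scalings, no filter, the replicate block, fewer libraries and each library left out. p-values reflect only the spread among the deposited libraries.

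The genes, the role groups and the gene lists were chosen with earlier results of these data known. Named genes were those called against wildtype, then those with the smallest p up to 8, the highest in FPKM, those nearest the limit and the proximal end, the lowest in counts, and genes overlapping a called one. Other names were chosen after their values were seen. Biotypes come from the BDGP6 annotation by gene ID. Intervals and SDs cover 3 libraries a group.

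The titles number the libraries 1 to 3 in each group, and the series text speaks of a sample set for every experimental replicate, so the numbers were read as pairing the libraries. After group means were removed, the mean correlation across genes was 0.119 for libraries with a common number and -0.0592 otherwise. The 18 common-number correlations ran from -0.0273 to 0.221, and 11 exceeded 0.1. For 10 of the 12 libraries the best match was with the same number.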

Additional observations from a re-analysis of the deposited data

How the results depend on the processing

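The 0 calls between heterozygous groups held under every alternative run. With the replicate block (pairing of libraries by number), the count of called genes moved from 2 to 5 in het, from 2 to 4 in paternal, from 1 to 4 in maternal and from 5 to 18 over the 3 groups against wildtype. With only the libraries compared in the fit it was 4 in het and 0 in maternal, and in maternal it was 2 without scaling factors and 2 with DESeq2. Leaving out single libraries gave 0 to 3 calls in het, 1 to 2 in paternal, 0 to 2 in maternal and 2 to 8 over the 3 groups. In the last, 2 calls were left without wildtype 1 or without wildtype 2 and 3 without paternal 3, while 8 were made without maternal 3. Apart from the block, shares over all genes are not given for these runs, so the counts do not set the interval apart from the genome. Without scaling factors the median log2 difference of the 390 genes was 0.027 in het and 0.022 in paternal. The cause of these shifts was not tested. The median log2 difference of the 390 genes, close to 0 throughout, changed sign when single libraries were left out, with ranges of -0.0033 to 0.0143 in het, -0.0024 to 0.0101 in paternal, -0.0073 to 0.0149 in maternal and -0.0070 to 0.0059 over the 3 groups. The log2 changes of the 5 called genes and of CG10492, CG17329 and CG31785 against wildtype kept their sign under every alternative run. These genes were picked by small p-values in the same libraries, so a stable sign is no independent support. CG11629 and CG14401 kept their calls over the 3 groups when any single library was left out. Depth limits genes such as CG15282, with 29 to 54 counts per library, and CG31785, with 2 to 21.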
